A study of Mus musculus with 2 samples.

Results

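Fcgr1, Fcgr3, Fcgr4, Fcgr2b, Fcer1g and Tyrobp, the IgG Fc receptors of mouse macrophages and the signalling adaptors used by many myeloid receptors, were taken by name as 6 of 21887 protein-coding genes. Peaks of acetylation of histone H4 at lysine 16 (H4K16ac) were collected over each gene, from its annotated start to its end, with 20 kb on each side. This gave 24 of 58229 wild-type and 15 of 55149 KAT8-cKO peaks, and 1 wild-type peak that lay in the windows of both Fcgr4 and Fcgr3 was counted once. H4K16ac had been profiled by CUT&Tag, a method that uses an antibody to bring a transposase to the modified histone, in mouse bone marrow-derived macrophages grown with M-CSF (20 ng/ml). All cells had received R848, at 100 ng/ml for 2 h, an agonist of Toll-like receptor 7, and untreated cells were not analysed here. The groups were 1 library of genotype WT and 1 of genotype KAT8-cKO, that is, cells deficient in KAT8, the main H4K16 acetyltransferase. The sources used here do not give the Cre driver, the strain, the animals' age, the number of animals behind each library or the number of reads. With 1 library per genotype there is no replicate and no test, so each difference below is one between 2 peak lists.

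Fc receptors bind the constant part of antibodies and let macrophages take up and respond to antibody-coated particles. Fcgr1, the high-affinity IgG receptor, and Fcgr3 and Fcgr4, which bind IgG complexes with lower affinity, activate cells through the adaptor encoded by Fcer1g, the Fc receptor gamma chain. Fcer1g and Tyrobp (DAP12) carry an immunoreceptor tyrosine-based activation motif (ITAM) that recruits the kinase Syk once phosphorylated. Fcgr2b is the inhibitory IgG receptor and signals through an inhibitory motif that recruits the lipid phosphatase encoded by Inpp5d.

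Promoter sequences are shown for the genes on whose start a peak was called, and for Fcgr3 because it shares a run of bases with Fcgr1. Each line gives the 250 bases before the transcription start, 5′ to 3′ along the gene, from RefSeq (GRCm38.p6, the assembly of mm10). They lie at chr3:96293970-96294219 (minus strand) for Fcgr1, chr1:171018676-171018925 (plus) for Fcgr4, chr1:171234350-171234599 (minus) for Fcer1g and chr1:171059395-171059644 (minus) for Fcgr3. Capitals mark TTCCTC, the reverse complement of GAGGAA, the core of sites bound by PU.1, the lineage transcription factor of macrophages, and other ETS proteins.
Fcgr1: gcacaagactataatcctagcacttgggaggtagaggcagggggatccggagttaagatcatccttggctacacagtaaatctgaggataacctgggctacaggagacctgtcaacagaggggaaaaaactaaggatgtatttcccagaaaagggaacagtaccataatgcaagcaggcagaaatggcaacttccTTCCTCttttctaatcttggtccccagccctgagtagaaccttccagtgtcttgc
Fcgr4: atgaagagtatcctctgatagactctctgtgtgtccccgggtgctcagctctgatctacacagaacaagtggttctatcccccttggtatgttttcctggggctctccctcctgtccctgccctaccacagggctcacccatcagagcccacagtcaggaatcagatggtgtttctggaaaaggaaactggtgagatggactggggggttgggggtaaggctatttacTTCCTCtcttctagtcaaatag
Fcer1g: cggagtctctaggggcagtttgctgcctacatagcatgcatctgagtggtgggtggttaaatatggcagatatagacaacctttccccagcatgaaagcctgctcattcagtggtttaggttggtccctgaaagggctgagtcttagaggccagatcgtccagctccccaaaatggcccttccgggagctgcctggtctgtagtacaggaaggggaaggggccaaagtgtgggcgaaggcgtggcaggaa
Fcgr3: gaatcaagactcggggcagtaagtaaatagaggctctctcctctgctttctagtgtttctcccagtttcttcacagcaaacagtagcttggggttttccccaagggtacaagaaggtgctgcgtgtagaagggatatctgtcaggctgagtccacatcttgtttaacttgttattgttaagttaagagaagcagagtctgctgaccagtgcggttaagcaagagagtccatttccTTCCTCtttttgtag

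The promoter table held 5 of the 6 genes, all but Tyrobp. GAGGAA, searched on both strands of the 300 bases from 250 before to 50 after the start, was found at 3 of these 5 genes and in 28.3% of 32851 promoters. The 2 figures differ in unit, since the 32851 count each listed start (Fcgr3 has 2) and the 5 count genes. The share over all genes was not computed. In each of the 3 it read TTCCTC along the gene, at 55 bases before the start of Fcgr1, 22 before that of Fcgr4 and 15 or 6 before the neighbouring starts listed for Fcgr3. On the gene's own strand GAGGAA was found at 0 of the 5 and in 15.6% of the 32851 promoters. The match of Fcgr1 and that of Fcgr4 lay inside a wild-type peak, and none lay in a KAT8-cKO peak. The longest run shared by promoters of different members was TTCCTTCCTCTTTT, 14 bases long, in Fcgr1 and Fcgr3, which contains that match. It occurred in 5 of the 32851 promoters on either strand and was looked for after the sequences had been seen. Those 5 include the promoters it was taken from, that of Fcgr1 and those of both Fcgr3 starts. TATAAA (13.6% of promoters), TGACTCA, the AP-1 site (5.20%), and the NF-κB site of 10 bases that was searched (0.155%) were in none of the 5 in this window. The ratio of observed to expected CG dinucleotides was 0.0631 at Fcgr1, 0.103 at Fcgr4, 0.201 and 0.263 at the Fcgr3 starts, 0.317 at Fcer1g and 0.353 at Fcgr2b. All of these were under the median of 0.384 over all promoters.

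All 6 genes had a wild-type H4K16ac peak within 1 kb of an annotated gene end, called an end peak here, and 1 of 6, Fcgr3, had one in KAT8-cKO. Over all protein-coding genes the shares were 46.8% and 43.3%, and 11.1% had one in wild type only. Thus 5 of the 6 genes lacked a KAT8-cKO end peak, against 23.6% of all genes with a wild-type one. In median, the strongest wild-type end peak per gene was lower for these 6 genes than for all genes with such a peak. The median fold over the peak caller's background was 2.90 and the median −log10 q 1.56, where q is the caller's false discovery rate, against 3.42 and 2.79 over all genes with a wild-type end peak. Over all 58229 wild-type peaks, wherever they lay, the medians were 2.90 and 1.18. With a q-value under 0.05 required, the wild-type count was 3 (Fcgr3, Fcgr4 and Tyrobp) and the KAT8-cKO count was 1 (Fcgr3). Then 2 genes, Fcgr4 and Tyrobp, were in wild type only. The same counts over all 21887 protein-coding genes were 8064 in wild type, 6852 in KAT8-cKO and 2528 in wild type only. The absence of a peak means that none was called, not that acetylation was absent, since the lists hold no signal outside peaks.

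**Figure D1:**
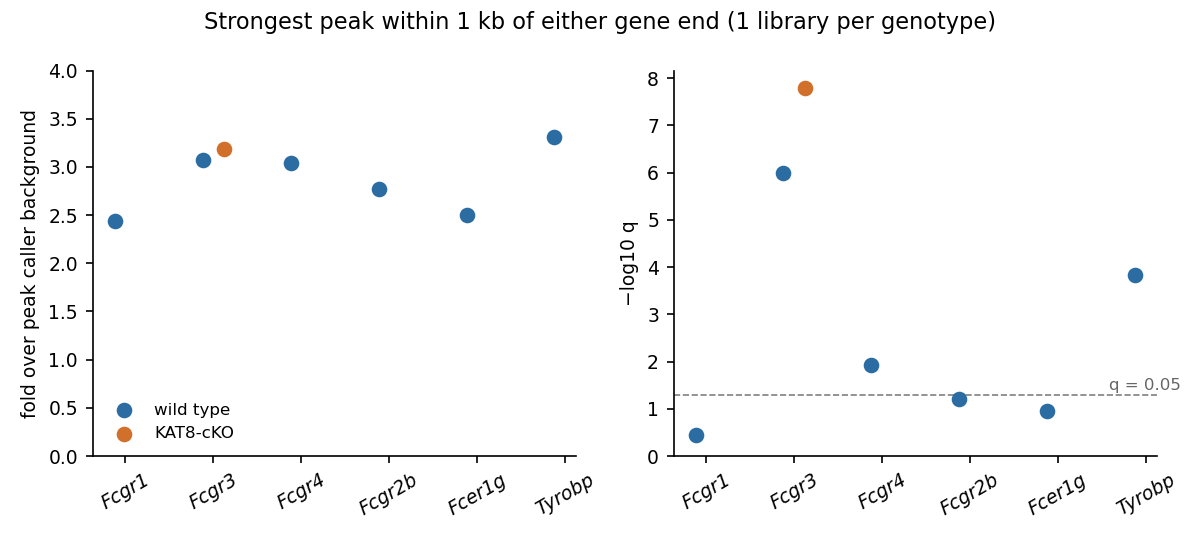
Strongest end peak of each gene, with the fold over the peak caller's background on the left and −log10 q on the right. Blue points are wild type and orange points KAT8-cKO, with 1 library each; a missing point means that no peak was called within 1 kb of either gene end. Only Fcgr3 has an orange point, and Fcgr1, Fcgr2b and Fcer1g lie under the dashed line at q = 0.05.

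How often an end peak lacked a KAT8-cKO counterpart depended on its strength in wild type across the whole genome. Among genes whose strongest wild-type end peak had a −log10 q under 0.5, as at Fcgr1, 58.8% had no KAT8-cKO end peak. The share was 51.3% between 0.5 and 1, where Fcer1g lay, and 45.6% between 1 and 1.30, where Fcgr2b lay. It was 30.2% between 1.30 (q = 0.05) and 3, the range of Fcgr4, and 12.2% between 3 and 5, the range of Tyrobp. Between 5 and 10, the range of Fcgr3, it was 3.93%. Among the 5 genes without a KAT8-cKO end peak, Tyrobp lay in the range where this was least frequent and Fcgr1 in that where it was most frequent.

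**Figure D2:**
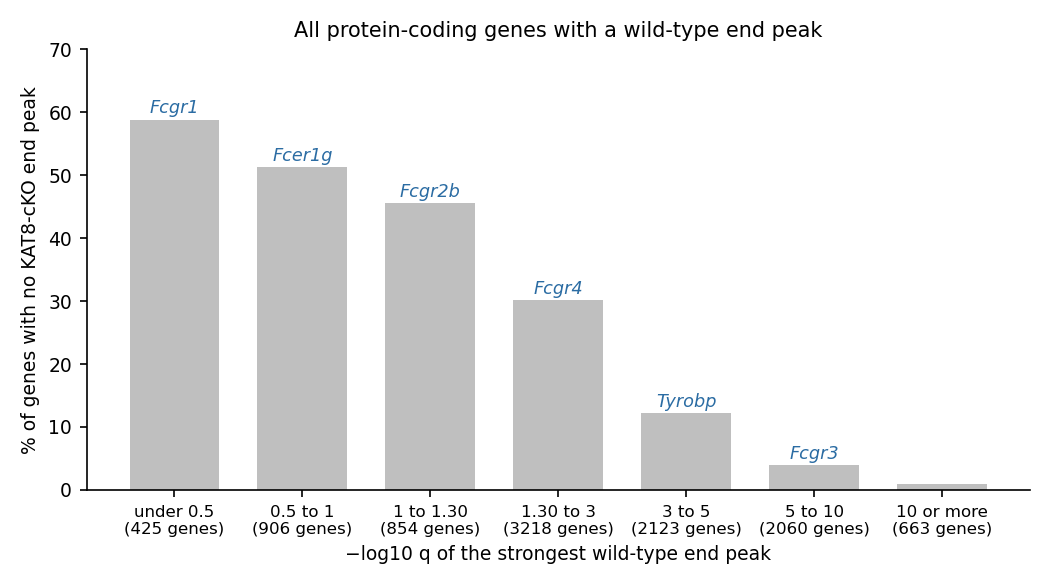
Share of protein-coding genes without a KAT8-cKO end peak, by the −log10 q of their strongest wild-type end peak, with the number of genes in each range. Blue names place the 6 genes: 5 of them lacked a KAT8-cKO end peak and Fcgr3 had one. The share goes from 58.8% under 0.5 to 0.905% at 10 or more.

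Fcgr1 lies on chromosome 3 (chr3:96282909-96293969, minus strand), beside the replication-dependent histone genes H4c14, H3c13 and H2bc18. Its wild-type end peak, chr3:96293825-96294150, had its summit 10 bases inside the gene from the transcription start. Its fold was 2.44 and its −log10 q 0.435 (q = 0.367), and only 5.04% of wild-type peaks had a lower −log10 q. It covered 181 of the 250 promoter bases printed above, and the nearest KAT8-cKO peak was 15328 bp away.

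The flanks of Fcgr1 carried stronger peaks than its start. Upstream, wild-type peaks at chr3:96300687-96301203 (fold 3.42, −log10 q 2.55) and chr3:96301821-96302066 (3.51, 2.70) lay 6718 and 7852 bp from the gene, and no KAT8-cKO peak was called upstream within 20 kb. Downstream of the gene, 4439 bp away, the peak with the highest fold of the window (chr3:96277826-96278470, fold 3.66, −log10 q 3.15) shared 173 bp with a KAT8-cKO peak of fold 3.20 (−log10 q 1.87). A weaker downstream peak (chr3:96272386-96272671, fold 2.67 in wild type and 2.48 in KAT8-cKO) was also shared. The remaining wild-type peaks lay on H4c14 (fold 2.96) and on an end of H2bc18, within 1 kb of H3c13 (2.72), and no KAT8-cKO peak overlapped them. In all, the window held 7 wild-type and 2 KAT8-cKO peaks, and both KAT8-cKO peaks were shared.

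Fcgr2b, Fcgr4 and Fcgr3 lie in that order on chromosome 1, and the 145358 bp from 20 kb before Fcgr2b to 20 kb after Fcgr3 held 13 wild-type and 7 KAT8-cKO peaks. At Fcgr4 (chr1:171018926-171029761, plus strand) 2 wild-type end peaks were called. The stronger, chr1:171017727-171017955, lay 971 bp upstream of the gene; its fold was 3.04 and its −log10 q 1.92. The other, chr1:171018729-171018988, had its summit 33 bp upstream of the start and covered 197 of the 250 promoter bases; here the fold was 2.63 and −log10 q 1.05 (q = 0.0884). A further wild-type peak 19391 bp upstream had a fold of 2.56, and one 10644 bp past the gene (chr1:171040405-171040866) a fold of 3.05. No KAT8-cKO peak lay anywhere in the Fcgr4 window, and 0 of the 4 wild-type peaks were overlapped. Of all protein-coding genes with a wild-type peak within 20 kb, 6.52% had no KAT8-cKO peak in that window.

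Fcgr2b (chr1:170960558-170976071, minus strand) had 1 peak in each list, at different places. The wild-type peak, chr1:170974949-170975148, had its summit 1052 bp inside the gene from its start, at fold 2.77 and −log10 q 1.20 (q = 0.0626). It reached into the 1 kb end window only at its edge and did not count as an end peak with a window of 500 bp. The KAT8-cKO peak lay 12365 bp past the 3′ end, inside the gene Gm39701, at fold 2.56 and −log10 q 0.663 (q = 0.217). Neither peak reached q under 0.05, and no peak lay on the promoter of the inhibitory receptor in either list.

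Fcgr3 (chr1:171051169-171065915, minus strand) was the member with most peaks, 9 in wild type and 6 in KAT8-cKO, and all 6 KAT8-cKO peaks were shared. Its end peaks did not lie at the starts of the promoter table, at positions 171059403 and 171059394, where no peak was called in either list. They lay at the annotated 5′ end of the longest gene model, upstream of those starts and among tRNA genes. The peak chr1:171063862-171065029 in wild type (fold 3.07, −log10 q 5.99) overlapped the tRNA genes n-TEctc5 and n-TGtcc1 and the microRNA gene Mir6546. Its KAT8-cKO counterpart, chr1:171064035-171065101, had fold 2.90 and −log10 q 4.66, and the pair shared 995 bp. The next, on n-TLcag6, spanned chr1:171065812-171066149 in wild type (fold 2.74, −log10 q 5.28) and chr1:171065610-171066446 in KAT8-cKO (fold 3.18, −log10 q 7.79). By −log10 q these were the strongest KAT8-cKO peaks of the 6 windows. With peaks that overlap a tRNA gene left out, a setting chosen after the data were seen, Fcgr3 had no end peak in either list, and the count of members with a KAT8-cKO end peak was 0.

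Past that end of Fcgr3, tRNA genes of 5 kinds recur, with like genes 7574 to 7671 bp apart, and 20 tRNA genes lie in the cluster as a whole. Peaks were also called between and just past these genes in both lists. At chr1:171072447-171072739, chr1:171077897-171078232, chr1:171080064-171080390 and chr1:171084382-171084591 the wild-type folds were 2.35, 2.83, 2.35 and 2.76. The KAT8-cKO peaks overlapping them had folds of 1.91, 2.54, 1.87 and 2.22. Wild-type peaks at chr1:171069513-171070005 (2.22) and chr1:171074715-171075006 (1.94) had no counterpart.

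Peaks near Fcgr3 had low folds for their q-values. Among wild-type peaks within 0.25 of the same −log10 q, between 0.107% and 2.75% had a lower fold than the Fcgr3 peaks, in 8 of 9 cases. The exception, with 51.04% lower, was the peak at chr1:171040405-171040866 on the side of Fcgr4. In KAT8-cKO the share with a lower fold was between 0.121% and 4.17% for all 6 peaks. The end peaks of the other 5 genes had 8.06% to 54.3% of like peaks under them. Over the whole lists, 21 wild-type peaks overlapped a tRNA gene, with median fold 2.93 and median −log10 q 2.82. All wild-type peaks at −log10 q 2.5 to 3 had median fold 3.57. In KAT8-cKO, 10 peaks over tRNA genes had medians of 3.02 and 1.99, against fold 3.11 for all peaks at 1.5 to 2. Of the 21 and 10 peaks, 71.4% and 80% were shared, against 33.2% and 35.6% of all peaks. At Fcgr3 lay 2 of them in each list. How reads that fit more than 1 copy of the recurring tRNA stretch were placed is not given in the sources used here, and its part in these values was not tested.

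**Figure D3:**
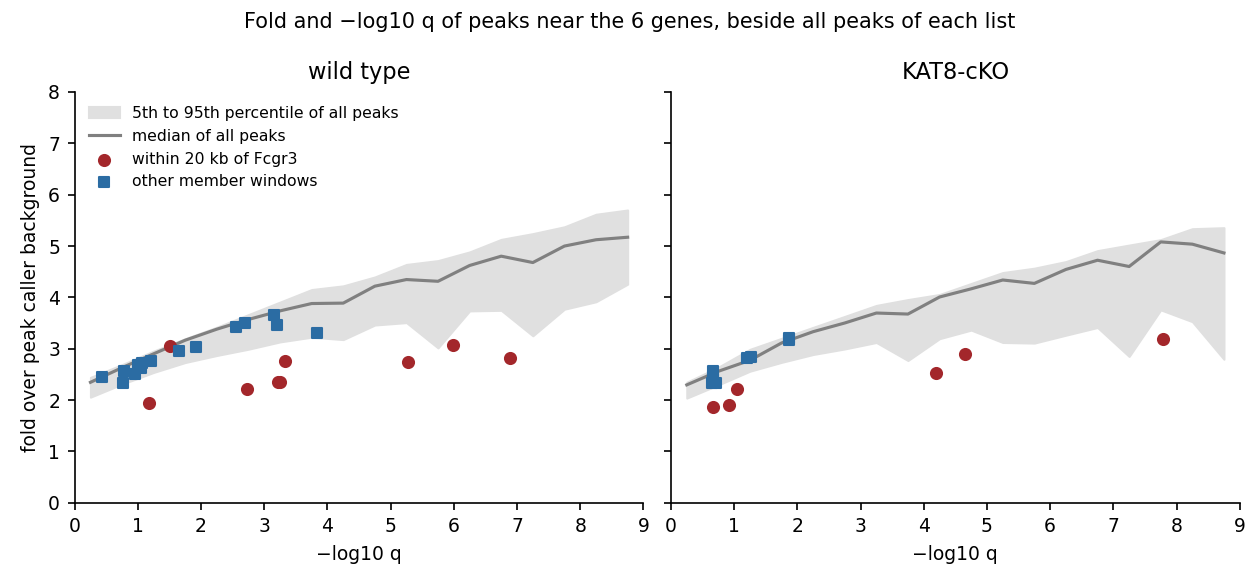
Fold over the peak caller's background against −log10 q for peaks of the member windows, wild type on the left and KAT8-cKO on the right. The grey line is the median and the grey band the 5th to 95th percentile of all peaks of the list in steps of 0.5 on the x axis. Red points, within 20 kb of Fcgr3, lie well under the median line at a given −log10 q apart from 1 wild-type peak near it, while blue squares of the other windows follow it more closely.

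Fcer1g (chr1:171229572-171234349, minus strand) had a wild-type peak over its start, chr1:171234288-171234610, which covered all 250 promoter bases. Its summit lay 202 bp upstream, its fold was 2.50 and its −log10 q 0.951 (q = 0.112). The nearest KAT8-cKO peak was 11834 bp away. Elsewhere in the window 2 wild-type peaks were shared. Over the overlapping ends of Tomm40l and Apoa2 a wild-type peak at fold 3.47 (−log10 q 3.20) shared 33 bp with a KAT8-cKO peak of fold 2.41 (0.658). A peak in KAT8-cKO only was called at chr1:171252933-171253132 in Adamts4 (fold 2.85). In all, Fcer1g had 3 wild-type and 4 KAT8-cKO peaks in its window, and was with Tyrobp 1 of 2 members with more KAT8-cKO than wild-type peaks.

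Tyrobp (chr7:30413782-30417582) had the highest end peak fold of the 6 genes. Its only wild-type peak within 20 kb, chr7:30413676-30414053, lay over the lower annotated end, with its summit at position 30413857, fold 3.31 and −log10 q 3.83 (q = 0.000147). Among wild-type peaks 89.1% had a lower −log10 q. The peak also overlapped the end of the long noncoding RNA gene Gm32029. No KAT8-cKO peak overlapped it, and the 2 KAT8-cKO peaks of the window lay on either side. The peak chr7:30411543-30411898 in Gm32029 was 1778 bp from the wild-type peak (fold 2.34, −log10 q 0.650). The other, chr7:30419691-30420355, lay on an end of Hcst, which encodes the adaptor DAP10 (fold 2.33, −log10 q 0.708). Neither had a q-value under 0.05. With an end window of 3 kb these peaks counted, and Tyrobp then had an end peak in both lists.

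**Figure D4:**
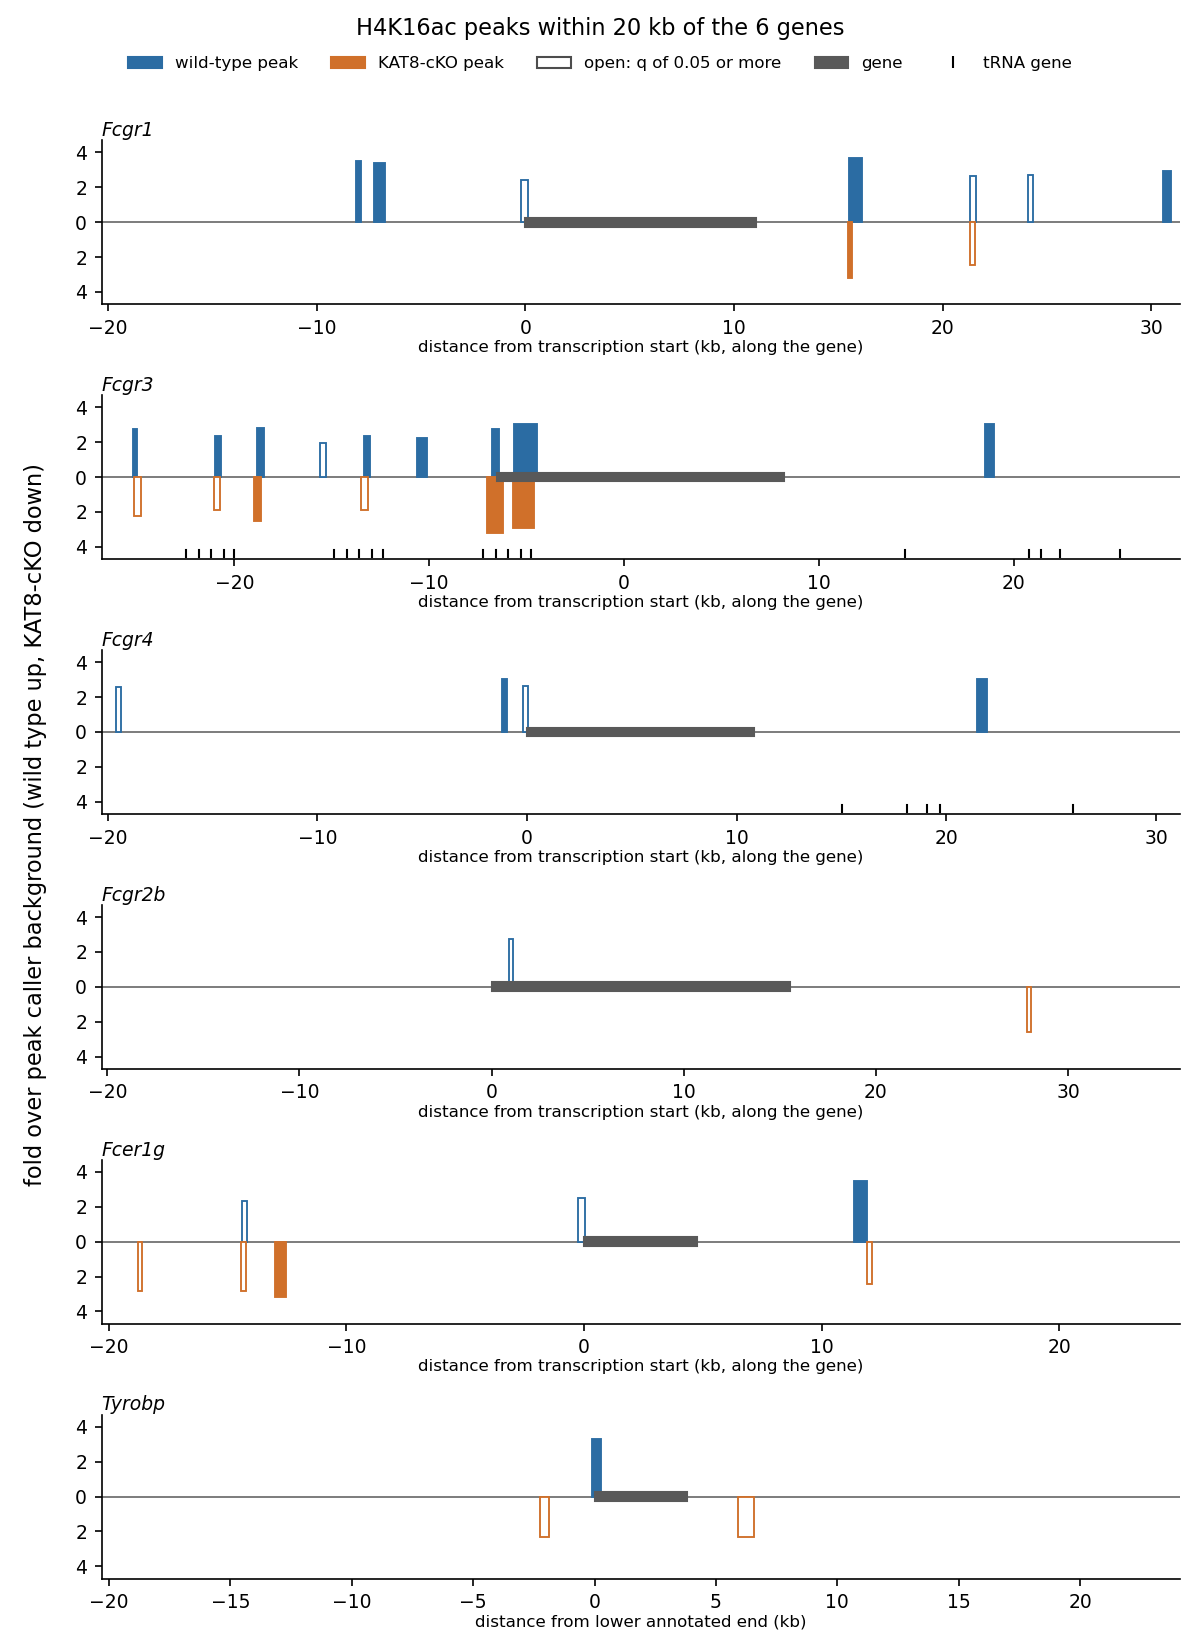
Peaks within 20 kb of each gene, drawn by distance from the transcription start along the gene (for Tyrobp, from the lower annotated end), with the height giving the fold over the peak caller's background. Wild-type peaks point up and KAT8-cKO peaks down, open bars have a q-value of 0.05 or more, dark grey bars are genes and ticks tRNA genes. No orange bar reaches the starts of Fcgr1, Fcgr4 or Fcer1g, the Fcgr4 panel has no orange bar, and most Fcgr3 bars lie upstream, over, between or just past the tRNA genes there, with 1 wild-type bar downstream of the gene.

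Seen at the promoter itself, a setting added after the data were seen, 3 of the 5 genes in the promoter table (Fcgr1, Fcgr4 and Fcer1g) had a wild-type peak on the 300 promoter bases and 0 had a KAT8-cKO peak. Over 17492 genes in that table, 39.3% had a wild-type and 33.4% a KAT8-cKO peak there, and 27% of those with a wild-type one had none in KAT8-cKO. None of the 6 genes had a peak that lay in the gene body outside the end windows of 1 kb, in either list. With end windows of 500 bp, the wild-type Fcgr2b peak and the Fcgr3 peaks over n-TEctc5 and n-TGtcc1 would lie in the body. The genes are 3801 bp (Tyrobp) to 15514 bp (Fcgr2b) long, and the share over all genes is not given here. In number, wild-type peaks per window ranged from 1 at Fcgr2b and Tyrobp to 9 at Fcgr3, and KAT8-cKO peaks from 0 at Fcgr4 to 6 at Fcgr3, with a median of 3 over all protein-coding genes in both lists.

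Over all windows 10 of 24 wild-type peaks (41.7%) were overlapped by at least 1 bp of a KAT8-cKO peak, against 34.2% of wild-type peaks within 20 kb of any protein-coding gene. In the other direction 10 of 15 KAT8-cKO peaks (66.7%) were overlapped, against 37.5%. The Fcgr3 window supplied 6 of the 10 shared pairs. Without its peaks 4 of 15 wild-type (26.7%) and 4 of 9 KAT8-cKO peaks (44.4%) were shared, 2 each at Fcgr1 and Fcer1g and 0 at Fcgr2b, Fcgr4 and Tyrobp. A q-value under 0.05 was reached by 15 of the 24 wild-type and 5 of the 15 KAT8-cKO peaks. Without the Fcgr3 window it was reached by 7 of 15 and 2 of 9. Over all peaks the shares were 46.86% in wild type and 46.96% in KAT8-cKO.

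Of 67 other genes of the same pathway, 24 had an end peak in both lists and 27 in neither, with 10 in wild type only and 6 in KAT8-cKO only. The 10 made up 29.4% of the 34 with a wild-type end peak, against 23.6% for all genes. With q under 0.05 required the counts were 11 of 25 and, for all genes, 2528 of 8064. The median wild-type fold of the 34 was 3.11, between that of the 6 genes (2.90) and that of all genes with a wild-type end peak (3.42).

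Of 10 other Fc receptor genes, 3 were marked in both lists and 7 in neither. Trim21, the cytosolic antibody receptor, had folds of 3.91 in wild type and 4.27 in KAT8-cKO. Fcgrt, the neonatal Fc receptor, had 2.61 and 3.80, and Fcrlb 2.61 and 3.42 from peaks that did not overlap. Of 15 receptors that signal through Fcer1g, Tyrobp or Hcst (with Hcst itself), 4 were marked in both lists and 8 in neither, with 1 in wild type only and 2 in KAT8-cKO only. Oscar, a collagen receptor that pairs with Fcer1g, had folds of 3.36 and 3.91, and Cd300lb 3.26 and 2.94. Trem1, an amplifier of inflammation that pairs with Tyrobp, had 3.18 and 3.20. Its neighbour Trem3, also among the 4, had the same values, and in wild type this was 1 peak counted at both genes. Clec5a, another partner of Tyrobp, had a wild-type fold of 2.78 only, and Cd300ld and Hcst had KAT8-cKO folds of 2.56 and 2.33 only. None of these 3 peaks reached q under 0.05.

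Of 24 kinases and scaffolds downstream of the ITAM, 12 carried an end peak in both lists and 5 in neither, while 5 had a wild-type and 2 a KAT8-cKO peak alone. Syk, the kinase that docks on the phosphorylated ITAM, had the highest fold of those in wild type only, 4.18 at −log10 q 4.77. No KAT8-cKO peak overlapped it, although 9 KAT8-cKO and 8 wild-type peaks lay within 20 kb of the gene. Btk, an X-linked kinase, had a wild-type fold of 3.13, Pik3ap1 of 2.80, and Prkcd a KAT8-cKO fold of 2.88. Malt1 and Bcl10, which carry the signal to NF-κB, had folds of 5.57 and 5.34 in wild type and 4.47 and 3.20 in KAT8-cKO, and Pik3r1 4.17 and 3.42.

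Of 18 inhibitors of ITAM signalling, 5 were marked in both lists and 7 in neither; 4 had an end peak in wild type only and 2 in KAT8-cKO only. Cblb, a ubiquitin ligase, had the highest fold, 7.30 in wild type and 4.13 in KAT8-cKO. The phosphatase genes Ptpn11 and Ptpn6 had 4.39 and 3.59 in wild type and 2.44 and 2.74 in KAT8-cKO. Pirb, an inhibitory receptor, and Cbl and Csk had wild-type folds of 3.30, 3.10 and 2.94 with no KAT8-cKO end peak. Inpp5d, the phosphatase recruited by Fcgr2b, was marked in KAT8-cKO only (fold 2.98, −log10 q 2.40), and that peak was overlapped by a wild-type peak outside the 1 kb window.

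**Figure D5:**
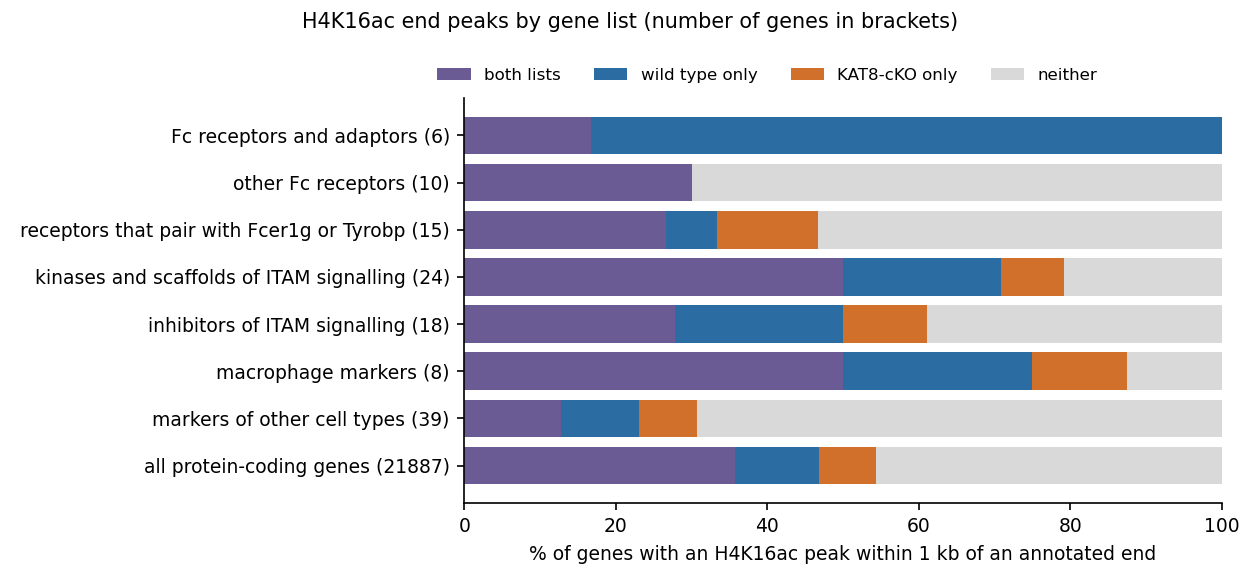
Share of genes by where an end peak was called (both lists, wild type only, KAT8-cKO only, neither), for the 6 genes, the pathway lists, cell type markers and all protein-coding genes, with the number of genes in brackets. The 6 genes have 1 gene in both lists and 5 with a wild-type peak alone, while of all genes 46.8% have an end peak in the wild-type list and 43.3% in the KAT8-cKO list.

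The cell type label was set against marker genes. Of 8 macrophage markers 6 had a wild-type and 5 a KAT8-cKO end peak. Both lists marked Cd68, Mertk, Spi1 and Cd14, and neither marked Lyz2; Csf1r and Adgre1 had wild-type peaks only and Itgam a KAT8-cKO peak only. Of 39 markers of other cell types 9 had a wild-type and 8 a KAT8-cKO end peak. Of 5 natural killer cell markers 0 were marked in either list. Of 6 mast cell and basophil markers 0 were marked in wild type and 2, Kit and Gata2, in KAT8-cKO. In wild type and KAT8-cKO, 3 and 1 of 6 T cell, 2 and 1 of 6 B cell, 1 and 1 of 6 neutrophil, 2 and 2 of 5 dendritic cell and 1 and 1 of 5 erythroid markers were marked. H4K16ac peaks mark genes in many cell types and measure no cell shares. The part of other cells in the values above was not tested.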

How the data were processed

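H4K16ac CUT&Tag peak lists of 1 wild-type and 1 KAT8-cKO library were used. Per the submitters' processing notes the build is mm10 and MACS2 2.2.7.1, Bowtie 0.12.8 and DiffBind were used in roles not stated. The sources used here do not give peak calling settings, a control library or duplicate handling. Columns of the deposited lists hold a score, a ratio (fold over the caller's background), −log10 p, −log10 q and the summit's offset. The fold and −log10 q, columns 7 and 9, are the authors' own values and serve only to describe and filter peaks. The deposited score and −log10 p were not used. Read depth is unknown, so no interval was given.

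Gene starts and ends came from RefSeq GRCm38.p6, without strand or exons; strand and starts came from its promoter table. A peak was an end peak within 1 kb of either annotated end, a body peak if otherwise over the gene, and else a flanking peak within 20 kb. An end window can also reach a neighbouring gene, so an end peak need not belong to the gene it is listed under. Positions are 1-based. Peaks were shared if at least 1 bp overlapped. For each pathway list up to 4 genes marked in a single list and up to 3 marked in both were named, by highest fold, along with all 6 genes and their neighbours; a gene that this rule takes is left out. Trem3 was named as well, for the peak it shares with Trem1. The members, lists and rules were chosen with earlier results of these data known. The overlap code (Python 3.11.15, pandas 2.3.3) was tested on simulated data. Clec6a and Lilrb4b were not in the gene table, and motifs of the proteins were not analysed here.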

Additional observations from a re-analysis of the deposited data

How the results depend on the processing

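The counts below compare 2 peak lists, carry no test and have no known depth behind them. Shares of overlapped peaks near all genes were not computed under the settings below. The 34.2% and 37.5% given above hold for the first setting only, so the shared counts here have no such share beside them. With q under 0.05, 3 of 6 genes had a wild-type end peak and 2 had one in wild type only; 4 of 15 wild-type and 4 of 5 KAT8-cKO peaks in the windows were shared. With the strongest 20000 peaks of each list the counts were 3, 2, 4 of 13 and 4 of 5. With end windows of 3 kb, 2 genes had a KAT8-cKO end peak. With flanks of 5 kb, 3 of 10 wild-type and 3 of 5 KAT8-cKO peaks were shared, and with 50 kb 17 of 38 and 17 of 26; these counts differ because the windows hold fewer or more peaks. On the 300-base promoter, added after the data were seen, 3 of 5 genes had a wild-type peak, 0 a KAT8-cKO peak and 3 a wild-type peak only. Without peaks over tRNA genes, also added later, 0 genes had a KAT8-cKO end peak. GAGGAA on the gene's own strand was found at 0 of 5 genes and in 15.6% of all promoters. The counts of pathway genes and of all genes in wild type only kept within 1.5 times of 10 and 2422 under each setting run, at 7 to 11 and 1856 to 2528. The numbers of genes with a wild-type end peak also changed, so the shares moved. For pathway genes the counts were 10 of 34 at first, 11 of 25 with q under 0.05 and 10 of 20 with the strongest 20000 peaks. For all genes they were 2422 of 10249, 2528 of 8064 and 2341 of 7224. No paired analysis was possible because each genotype has 1 library and the values come from no test.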
